A study of Sus scrofa with 12 samples.

Results

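The 10 genes described here make new fatty acids from glucose carbon or set the level of the enzymes that do so: FASN, SCD, ACACA, ACLY, ELOVL6, ME1, THRSP, SREBF1, MLXIPL and SLC25A1. They were taken by gene name from a table of 23271 genes, all 10 were found in it, and all 10 lay above the minimum of 0.5 FPKM (the authors' level scaled by gene length and library total) set for testing, as did 11205 genes in all. Poly(A) RNA of the back muscle longissimus dorsi was sequenced in 6 libraries of Laiwu pigs and 6 of Yorkshire pigs. Laiwu pigs are a native Chinese breed with marbled meat, and Yorkshire pigs are a lean Western breed. No treatment or allele separates the groups beyond breed, both breeds were sampled at the same weight, and the labels give neither age nor sex nor whether each library comes from its own animal, so the p-values below rest on the spread from library to library.

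In de novo lipogenesis, citrate leaves the mitochondrion through the carrier SLC25A1 and is split by ACLY into cytosolic acetyl-CoA. ACACA carboxylates acetyl-CoA to malonyl-CoA, FASN builds palmitate from it with NADPH that ME1 helps to supply, ELOVL6 lengthens palmitate to stearate, and SCD puts the first double bond into stearate to give oleate. SREBF1, which encodes the insulin-responsive factor SREBP-1, and MLXIPL, which encodes the glucose-responsive factor ChREBP, switch these genes on, and THRSP (Spot 14) is a small nuclear and cytosolic protein that goes with high lipogenesis. In pigs the pathway is most active in adipose tissue, and whole muscle holds fat cells between its fibres as well as the fibres themselves.

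Each library held 54961358 to 67285809 counts assigned to genes, and the 10 genes had between 83 counts (THRSP in Yorkshire 2) and 17550 counts (FASN in Laiwu 6) in a library, so counting error was small beside the spread between libraries. The tissue label was borne out by its markers: all 7 skeletal muscle markers found in the table were at high levels, and their summed level ran from 63156 to 80351 FPKM in Laiwu and from 64125 to 83602 FPKM in Yorkshire. Fat cell markers were present in every library, with 12 of 14 found, none at 0 in any library, and a summed level of 110.3 to 295.0 FPKM in Laiwu and 104.97 to 167.7 FPKM in Yorkshire. Yorkshire 5 stood apart in that its deviation from the breed mean went with gene length (Spearman's rho of -0.442 across tested genes, against -0.181 to 0.266 in the other libraries). Log2 fold changes of long genes such as ACACA and FASN, and of other members that Yorkshire 5 moved, are therefore also given without it. The spreads within a breed and the correlations between members are not given without that library alone.

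Fitted levels were higher in Laiwu than in Yorkshire for 7 of the 10 genes, but none passed the test. The number of members called by edgeR's quasi-likelihood test at a Benjamini-Hochberg adjusted p under 0.05 was 0 of 10, and 0 of 11205 genes (0%) were called in all. The median log2 fold change, Laiwu minus Yorkshire, was 0.60 over the 10 genes and -0.001 over all tested genes, and 0.33 over the 10 genes without Laiwu 6. Of the members, 7 lay above 0 and 3 below both with and without that library, against 49.7% of all tested genes above 0. Without Yorkshire 5 the median over the 10 genes was 0.46. The log2 fold changes were then 0.58 for THRSP, 1.11 for SCD, 0.90 for MLXIPL, 0.77 for ELOVL6, 0.22 for ME1 and -0.20 for SREBF1. Over all 12 libraries they were 0.73, 1.23, 1.03, 0.82, 0.31 and -0.09. ELOVL6 and MLXIPL, 2 of the 10 members, had an unadjusted p under 0.05, both higher in Laiwu, where 4.44% of all tested genes had such a p in either direction and 2.14% had it with Laiwu higher. The same 2 members had it without Laiwu 6, where the share over all genes was 3.84%. That count moved with other libraries and tools: it was 5 without Yorkshire 1, 4 without Laiwu 4, 3 without Laiwu 2, Laiwu 5 or Yorkshire 6, and 1 without Laiwu 3, and it was 4 with DESeq2. In these settings, in the same order, 468, 434, 555, 521, 547, 284 and 569 of all 11205 tested genes had such a p, against 498 in the main fit. The libraries of the breeds overlapped for every member, while 0.178% of all tested genes had no overlap between the breeds.

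**Figure D1:**
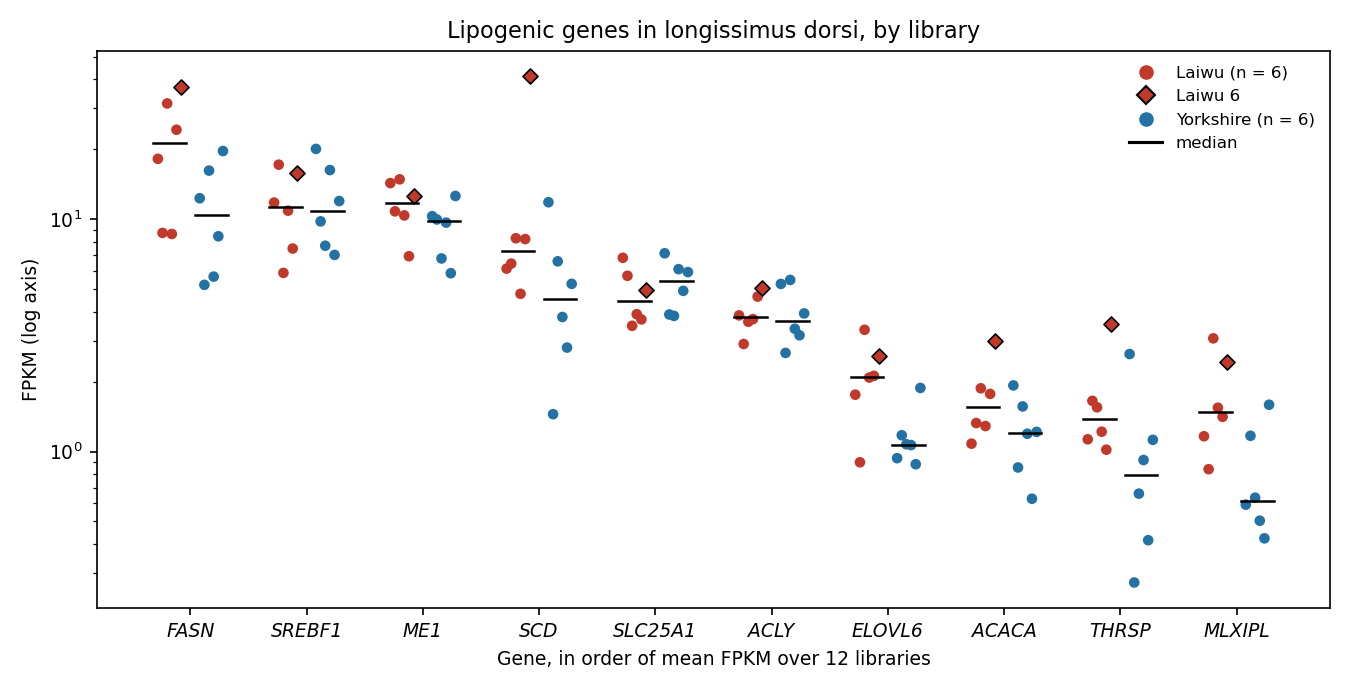
FPKM (log axis) of the 10 genes in each library, in order of mean level over 12 libraries, with Laiwu left of Yorkshire for each gene and a bar at each median. The breeds overlap for every gene, and Laiwu 6 (diamond) is the highest library for FASN, SCD, ACACA and THRSP, with SCD at 41.3 FPKM.

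Per gene length, FASN was the most abundant member at a mean of 16.3 ± 10.4 FPKM (SD, n = 12), followed by SREBF1 at 11.8 ± 4.59, ME1 at 10.4 ± 2.88 and SCD at 8.91 ± 10.6 FPKM. SLC25A1 was at 5.03 ± 1.29 and ACLY at 3.97 ± 0.934 FPKM. ELOVL6 at 1.65 ± 0.784, ACACA at 1.47 ± 0.616, THRSP at 1.34 ± 0.931 and MLXIPL at 1.28 ± 0.807 FPKM made up the low end. Only the step from ACLY to ELOVL6 held in all 12 libraries, and every other neighbouring pair changed places in at least 3 of them, so those levels did not differ beyond their spread. The order also depended on breed: in Laiwu it began with FASN, SCD, ME1 and SREBF1, while in Yorkshire SREBF1 (12.1 FPKM) came before FASN (11.2 FPKM) and SCD was at place 5. Without Laiwu 6 the SCD mean over the other 11 libraries was 5.96 ± 2.87 FPKM (SD), at place 4 as before, and in Laiwu SCD then came after FASN, ME1 and SREBF1.

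The genes that supply cytosolic acetyl-CoA showed no sign of a breed difference. SLC25A1, the citrate carrier (ENSSSCG00000010116, Sscrofa11.1 chromosome 14, 50974617 to 50978039), had a lowest, median and highest level of 3.48, 4.44 and 6.82 FPKM in Laiwu and of 3.84, 5.42 and 7.13 FPKM in Yorkshire. The ranges nearly coincide. Its log2 fold change was -0.17 ± 0.21 (SE, edgeR adjusted p = 0.922), and -0.17 ± 0.23 without Laiwu 6. ACLY, the ATP citrate lyase (ENSSSCG00000017421, chromosome 12, 20796749 to 20841298), ran from 2.90 through 3.79 to 5.03 FPKM in Laiwu and from 2.66 through 3.65 to 5.48 FPKM in Yorkshire. It averaged 3.96 ± 0.765 FPKM in Laiwu against 3.98 ± 1.16 in Yorkshire (SD, n = 6 each). The log2 fold change of ACLY was -0.01 ± 0.17 (adjusted p = 0.996), and it changed sign between settings, from -0.09 without Yorkshire 2 to 0.08 without Yorkshire 1.

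ME1, the cytosolic malic enzyme that makes NADPH (ENSSSCG00000004454, chromosome 1, 82799684 to 82991085), had a lowest, median and highest level of 6.93, 11.7 and 14.8 FPKM in Laiwu and of 5.86, 9.82 and 12.6 FPKM in Yorkshire. In 3 Laiwu libraries ME1 lay above the highest Yorkshire value. It had a log2 fold change of 0.31 ± 0.22 (SE, adjusted p = 0.912), and 0.30 without Laiwu 6.

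Both enzymes of fatty acid synthesis proper had fitted levels above those of Yorkshire in Laiwu, within wide errors. ACACA, acetyl-CoA carboxylase alpha (ENSSSCG00000017694, chromosome 12, 38581457 to 38824712), ran from 1.08 through a median of 1.55 to 2.98 FPKM in Laiwu and from 0.626 through 1.204 to 1.93 FPKM in Yorkshire. The highest value was that of Laiwu 6 and the lowest that of Yorkshire 5. The log2 fold change of ACACA was 0.47 ± 0.26 (SE, adjusted p = 0.912), 0.25 ± 0.23 without Laiwu 6 and 0.34 without Yorkshire 5. FASN, the fatty acid synthase (ENSSSCG00000029944, chromosome 12, 920509 to 937561), ran from 8.64 through a median of 21.2 to 37.3 FPKM in Laiwu and from 5.22 through 10.4 to 19.7 FPKM in Yorkshire. Laiwu 6, Laiwu 3 and Laiwu 5, at 37.3, 31.5 and 24.3 FPKM, lay above all Yorkshire libraries, while Laiwu 2 and Laiwu 4 lay below the Yorkshire median. The log2 fold change of FASN without Laiwu 6 was 0.68 ± 0.42 (adjusted p = 0.947), and without Yorkshire 5 it was 0.85, beside 0.90 ± 0.42 over all libraries.

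**Figure D2:**
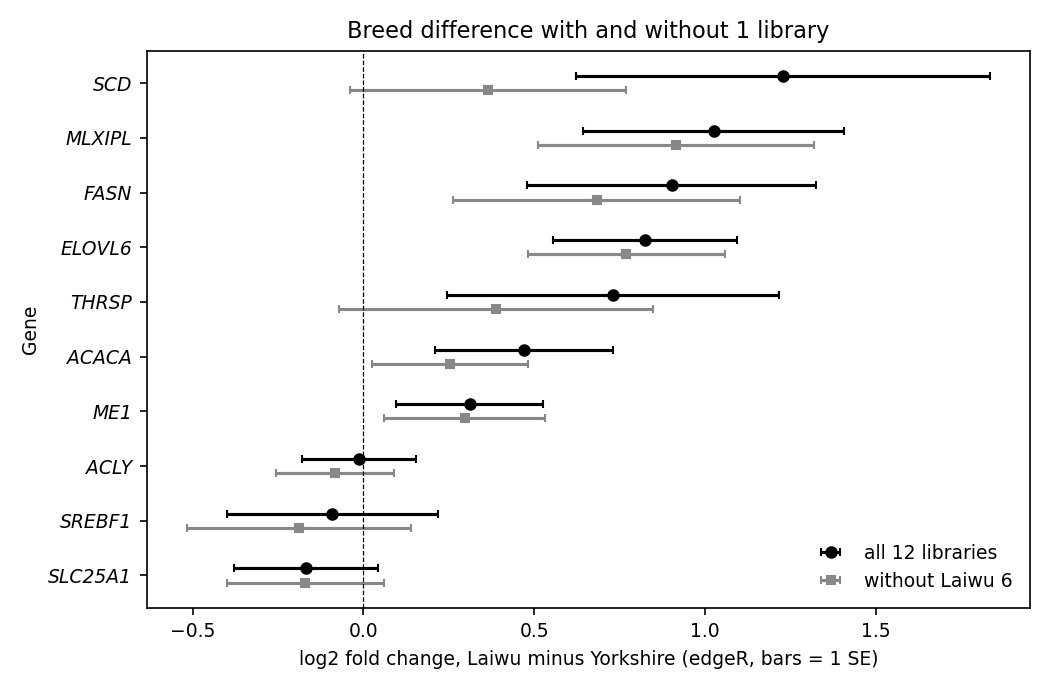
Log2 fold change of each gene, Laiwu minus Yorkshire, by edgeR, with bars of 1 SE, from all 12 libraries (circles) and without Laiwu 6 (squares). SCD moves most between the fits, at 1.23 and 0.36, and SLC25A1 moves least, at -0.17 in both.

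Elongation and desaturation differed in how far they rested on a single library. ELOVL6, the elongase of C16 fatty acids (ENSSSCG00000036236, chromosome 8, 112027054 to 112191274), ran from 0.899 through a median of 2.10 to 3.34 FPKM in Laiwu and from 0.882 through 1.07 to 1.88 FPKM in Yorkshire. In 4 of 6 Laiwu libraries ELOVL6 lay above every Yorkshire value, and 5 lay above the Yorkshire median. ELOVL6 had the smallest unadjusted edgeR p among the members, 0.00858, with a log2 fold change of 0.82 ± 0.27 (SE, adjusted p = 0.912), and 0.77 ± 0.29 without Laiwu 6. SCD, the stearoyl-CoA desaturase (ENSSSCG00000010554, chromosome 14, 111461569 to 111478020), was at 6.13, 6.44, 8.28, 4.77, 8.22 and 41.3 FPKM in Laiwu 1 to 6 and at 11.8, 1.45, 6.59, 3.79, 2.80 and 5.27 FPKM in Yorkshire 1 to 6. Laiwu 6 stood far above all others, and the other 5 Laiwu libraries were within the Yorkshire range. All 6 lay above the Yorkshire median of 4.53 FPKM, Laiwu 4 narrowly so, and 3 Yorkshire libraries lay below the lowest Laiwu one. Without Laiwu 6 the SCD mean was 6.77 ± 1.49 FPKM in Laiwu (SD, n = 5) and 5.29 ± 3.68 FPKM in Yorkshire (SD, n = 6), with a log2 fold change of 0.36 ± 0.40 (adjusted p = 0.948), against 1.23 ± 0.60 (adjusted p = 0.912) over all 12. Leaving out Yorkshire 1, the highest library of its breed, gave 1.63.

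THRSP (ENSSSCG00000033822, chromosome 9, 12479907 to 12488557) ran from 1.02 through a median of 1.38 to 3.55 FPKM in Laiwu and from 0.273 through 0.789 to 2.63 FPKM in Yorkshire. All 6 Laiwu libraries lay above the Yorkshire median, and 4 Yorkshire libraries lay below the lowest Laiwu one. Its log2 fold change was 0.73 ± 0.49 (SE, adjusted p = 0.912), 0.39 ± 0.46 without Laiwu 6 and 1.28 without Yorkshire 1, the highest library of each breed. THRSP overlaps NDUFC2 on the other strand by 2396 bases, and since no source used here states whether the strand entered the counting, reads of the overlap may belong to either gene. NDUFC2, a subunit gene of respiratory complex I, averaged 3.78 ± 0.385 FPKM in Laiwu against 4.76 ± 1.04 in Yorkshire (SD, n = 6 each), and its part in the THRSP values was not tested.

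The transcription factor genes differed from each other. MLXIPL (ENSSSCG00000007710, chromosome 3, 10898670 to 10916718) was at 1.16, 0.839, 3.07, 1.54, 1.41 and 2.43 FPKM in Laiwu 1 to 6 and at 0.591, 1.17, 0.633, 0.504, 0.423 and 1.59 FPKM in Yorkshire 1 to 6. All 6 Laiwu libraries lay above the Yorkshire median and 4 Yorkshire libraries lay below the lowest Laiwu one, and Yorkshire 2 and 6 lay within the Laiwu range. MLXIPL had a log2 fold change of 1.03 ± 0.38 (SE, unadjusted p = 0.0184, adjusted p = 0.912 by edgeR), 0.92 ± 0.40 without Laiwu 6, and 0.80 to 1.35 with any single library left out. SREBF1 (ENSSSCG00000033626, chromosome 12, 60733907 to 60751267) ran from 5.87 through 11.3 to 17.2 FPKM in Laiwu and from 7.02 through 10.9 to 20.1 FPKM in Yorkshire. Its level was several times that of MLXIPL in either breed, and its ranges overlapped almost entirely. The log2 fold change of SREBF1 was -0.09 ± 0.31 (adjusted p = 0.977) and -0.19 ± 0.33 without Laiwu 6, and it turned to 0.10 without Yorkshire 1. The table also lists the microRNA gene ssc-mir-33b inside SREBF1 on the same strand, at a mean of 0.049 FPKM.

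The members varied more between libraries of a breed than most genes. Their within-breed SD of log2 CPM (counts scaled to a common library total) had a median of 0.569, against 0.285 over all tested genes. SCD had the largest at 1.04, which placed it at percentile 97.6 of tested genes, and THRSP (0.896), FASN (0.824) and MLXIPL (0.716) followed at percentiles 96.4, 95.4 and 93.3. The first place of SCD rested on Laiwu 6: without that library THRSP was at 0.843, FASN at 0.792, SCD at 0.760 and MLXIPL at 0.725, and the medians were 0.579 over the members and 0.286 over all tested genes. ACLY had the smallest at 0.309, at percentile 55.7. Across all libraries the highest SCD value was 28.5 times the lowest (8.17 times without Laiwu 6), and the highest FASN and MLXIPL values were 7.14 and 7.26 times their lowest.

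No library was the highest or the lowest for all members. Laiwu 6 was the highest of the 12 for FASN, SCD, ACACA and THRSP and among the top 3 for 8 members. Laiwu 3 was the highest for ELOVL6, ME1 and MLXIPL, yet the lowest for SREBF1 and SLC25A1. Yorkshire 1 was the highest for SREBF1 and SLC25A1, and among the top 2 for 6 members. At the low end, Yorkshire 2 was the lowest for FASN, SCD, ACLY and THRSP, and Yorkshire 5 was the lowest for ACACA, ELOVL6, ME1 and MLXIPL and among the bottom 3 for 9 of 10. The part of that library's relation to gene length in these low values was not tested.

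**Figure D3:**
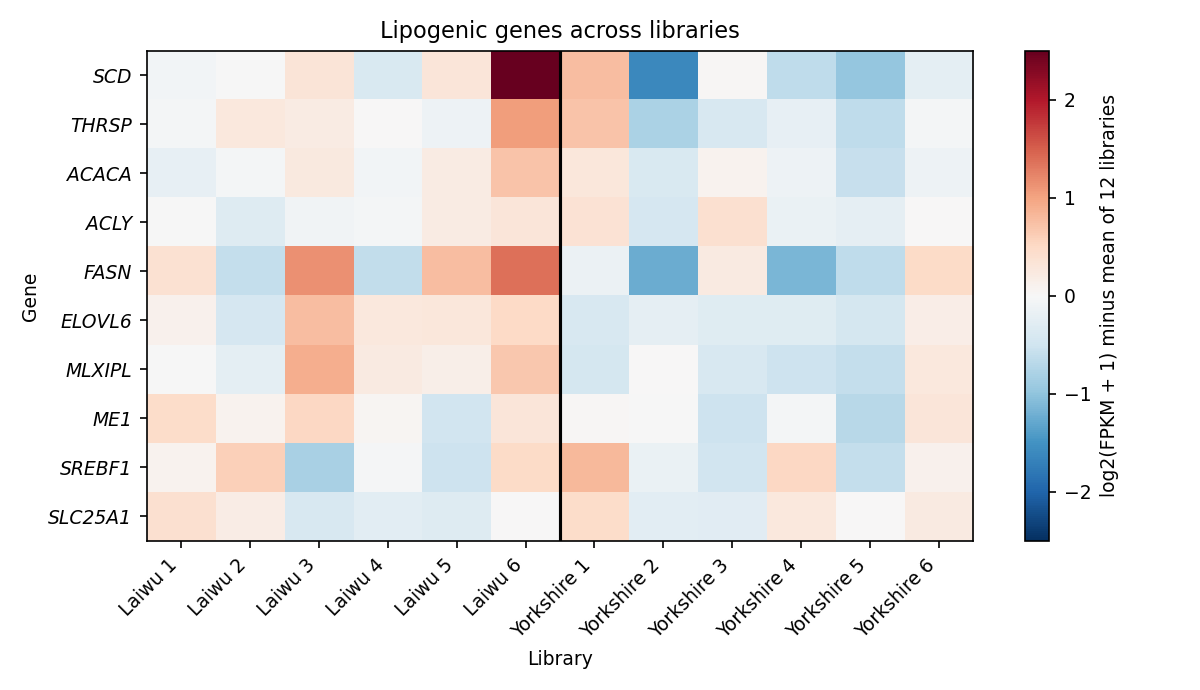
log2(FPKM + 1) of each gene minus its mean over the 12 libraries, red above and blue below, with the 6 Laiwu libraries left of the line. SCD in Laiwu 6 is the strongest cell, and Laiwu 3 is red for FASN, ELOVL6 and MLXIPL and blue for SREBF1 and SLC25A1.

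Once the breed means were removed, some members moved together across the 12 libraries and others apart. Over the 45 pairs Pearson's r of log2(FPKM + 1), centred within breed, ran from -0.40 to 0.91 with a median of 0.39, and 38 pairs were above 0. A two-sided permutation test within breeds, adjusted over the 45 pairs, called 6 pairs on Pearson's r, all positive, of which 1 was also called without Laiwu 6. On Spearman's rho it called 3 pairs: ELOVL6 and MLXIPL, SCD and ACACA, and FASN and SCD. The pairs share libraries and are not independent.

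The pair called with and without Laiwu 6 was ELOVL6 and MLXIPL, with r = 0.91 and Spearman's rho = 0.93 (n = 12, permutation adjusted p = 0.00315 and 0.0036). It was 0.94 within Laiwu, 0.90 within Yorkshire, 0.91 without Laiwu 6 and 0.92 without the 2 libraries farthest in ELOVL6. SCD and ACACA had r = 0.91 and rho = 0.92 (permutation adjusted p = 0.00765 and 0.00562), with 0.93 within Laiwu, 0.89 within Yorkshire, and 0.85 without Laiwu 6, where the adjusted p was 0.0904. SCD and THRSP had r = 0.88 and rho = 0.77, and ACACA and THRSP had r = 0.81 and rho = 0.70. SCD and ACLY had r = 0.78 and rho = 0.79, and ACACA and ACLY had r = 0.77 and rho = 0.73. These 4 pairs had permutation adjusted p-values of 0.0232, 0.0319, 0.0232 and 0.0373 for r, and 0.0730, 0.0964, 0.0699 and 0.0874 for rho. Without Laiwu 6 their r was 0.82, 0.70, 0.83 and 0.75, at adjusted p-values of 0.174, 0.198, 0.108 and 0.174. With the 2 libraries farthest in the first gene of each pair left out, r was 0.77 for SCD and ACACA, and 0.61, 0.64, 0.79 and 0.74 for those 4 pairs. FASN and SCD, called on rho alone, had rho = 0.82 and r = 0.70 (permutation adjusted p = 0.0286 and 0.0540), and r was 0.64 without Laiwu 6, with an adjusted p of 0.189.

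The highest r of SREBF1 was with SLC25A1, though it missed the threshold (r = 0.78, rho = 0.78, permutation adjusted p = 0.0508 and 0.0688, and 0.110 without Laiwu 6 for r). With THRSP SREBF1 had r = 0.67 and rho = 0.67 (permutation adjusted p = 0.0913 and 0.110), and r = 0.63 without Laiwu 6. With SCD, ME1, ACACA and ACLY its r was 0.40, 0.40, 0.31 and 0.09 (permutation adjusted p = 0.451, 0.451, 0.566 and 0.855). Its r was -0.23 with FASN, -0.40 with ELOVL6 and -0.28 with MLXIPL, with permutation adjusted p-values of 0.654, 0.451 and 0.601. The rho values were -0.14, -0.37 and -0.31, with adjusted p-values of 0.793, 0.485 and 0.533. The -0.40 with ELOVL6 was -0.67 within Laiwu and 0.05 within Yorkshire, and 0.14 without Laiwu 2 and Laiwu 3.

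**Figure D4:**
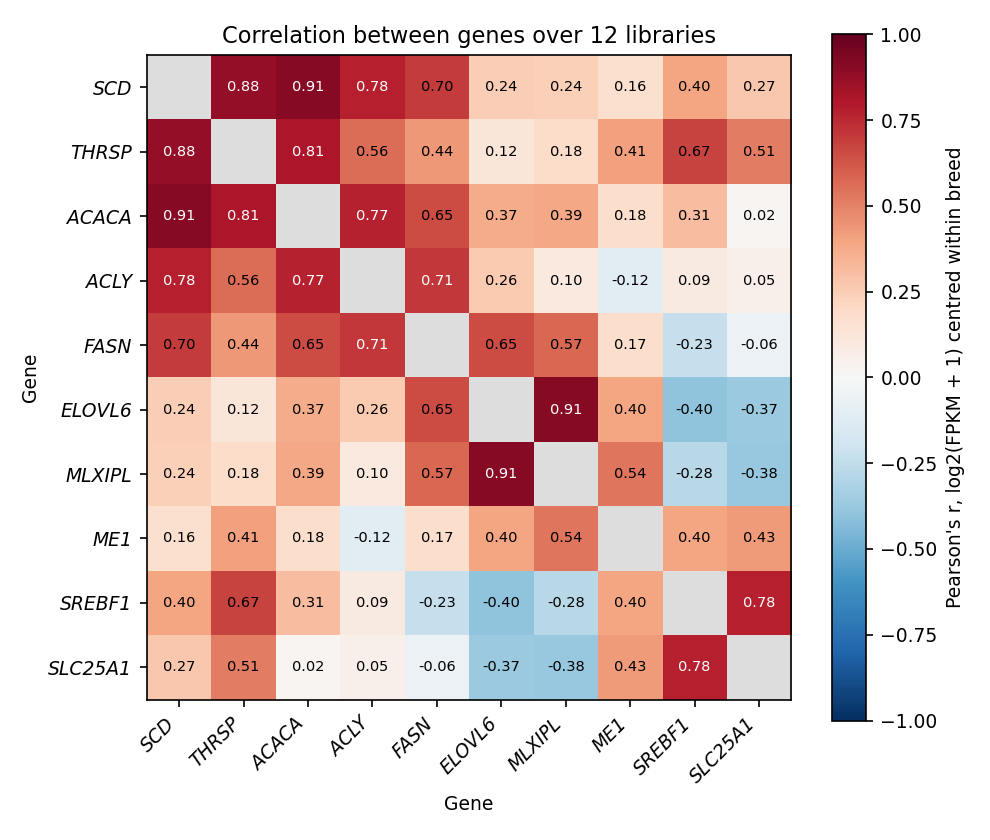
Pearson's r between each pair of genes over 12 libraries, from log2(FPKM + 1) centred within breed. Among SCD, THRSP, ACACA and ACLY r runs from 0.56 (THRSP and ACLY, a pair not called) to 0.91. FASN has 0.70, 0.65 and 0.71 with SCD, ACACA and ACLY, and 0.44 with THRSP. ELOVL6 and MLXIPL, the only pair also called without Laiwu 6, stand at 0.91, and SREBF1 and SLC25A1, not called, at 0.78.

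Ratios within a library, which do not depend on its total, were compared for 5 pairs of related genes by exact permutation tests over 924 assignments of libraries (two-sided, adjusted over the 5), and 0 of 5 passed. SCD over FASN had a median of 0.433 in Laiwu and 0.368 in Yorkshire, and reached 1.11 in Laiwu 6 and 0.961 in Yorkshire 1. Its log2 difference, Laiwu minus Yorkshire, was 0.18 (exact p = 0.703, adjusted p = 0.861), and -0.06 without Laiwu 6. ELOVL6 over FASN had medians of 0.1004 in Laiwu and 0.1006 in Yorkshire and a log2 difference of -0.08 (exact p = 0.861, adjusted p = 0.861), or 0.04 without Laiwu 6. ACACA over ACACB, the carboxylase isoform tied to the mitochondrion and to fatty acid oxidation in muscle, was at a median of 0.192 in Laiwu and 0.176 in Yorkshire. That is a level of the lipogenic isoform below that of the other in every library, and the log2 difference was 0.26 (exact p = 0.284, adjusted p = 0.709), or 0.16 without Laiwu 6. SREBF1 over SREBF2, the sterol-sensing paralog, had medians of 2.28 in Laiwu and 2.04 in Yorkshire, above 1 in all 12 libraries, with a log2 difference of 0.17 (exact p = 0.615, adjusted p = 0.861) that was 0.09 without Laiwu 6 and -0.004 without Yorkshire 3.

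MLXIPL over MLX, the gene of its DNA-binding partner, had the largest difference of the 5 ratios. Its lowest, median and highest values were 0.0342, 0.0559 and 0.123 in Laiwu and 0.0162, 0.0222 and 0.0559 in Yorkshire. In Laiwu 3 libraries lay above the highest Yorkshire one. The log2 difference was 1.17, with means of -4.02 ± 0.68 in Laiwu and -5.18 ± 0.72 in Yorkshire (SD, n = 6 each), an exact p of 0.0216 and an adjusted p of 0.108, and it was 1.05 with an adjusted p of 0.195 without Laiwu 6. MLX itself averaged 25.9 ± 1.18 FPKM in Laiwu against 26.9 ± 1.94 in Yorkshire. MLXIP, which encodes MondoA, the paralog of ChREBP in muscle, averaged 30.1 ± 4.39 FPKM in Laiwu against 27.7 ± 8.12 in Yorkshire, where its lowest value was 12.2 (MLXIP was named after its values were seen).

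FASN, ELOVL6 and MLXIPL followed the level of fat cell markers across libraries. The marker level was the mean log2(FPKM + 1) of ADIPOQ (the hormone adiponectin), PLIN1 and CIDEC (coat proteins of fat cell lipid droplets) and FABP4 (which carries fatty acids in adipocytes). It was 3.999 ± 0.80 in Laiwu and 2.87 ± 0.61 in Yorkshire (SD, n = 6 each, exact permutation p = 0.0238, two-sided), with Laiwu 2 lowest (2.77) and Laiwu 3 highest (4.97) of the Laiwu libraries, and Yorkshire 4 lowest (2.10) and Yorkshire 6 highest (3.74) of the others. The 4 are part of a longer fat cell list, which was chosen with earlier results of these data known. Of that list 10 of 11 tested genes had a log2 fold change above 0. Its genes of highest level, PLIN4 and CFD, had 0.30 ± 0.20 and -0.10 ± 0.12 (SE). The exact p thus holds for these 4 genes and not for fat cell markers as a whole. In a piece of muscle more fat cells and more of the marker RNAs per fat cell cannot be told apart. The part of the fat cell markers in the breed values above was not tested.

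With breed means removed, r with the marker level was 0.84 for FASN, 0.85 for ELOVL6 and 0.81 for MLXIPL (n = 12, permutation adjusted p over 10 members = 0.0122, 0.0122 and 0.0124). The rho values were 0.78, 0.71 and 0.76 (permutation adjusted p = 0.0472, 0.0475 and 0.0472). Within Laiwu r was 0.80, 0.97 and 0.97, and within Yorkshire 0.90, 0.58 and 0.55. Without Laiwu 2 and Laiwu 3, the libraries farthest in marker level, r was 0.79, 0.68 and 0.68, and without Laiwu 6 it was 0.81, 0.84 and 0.79, where all 3 still passed (permutation adjusted p = 0.0430, 0.0430 and 0.0455). None of the 3 passed without Laiwu 2, where each had a permutation adjusted p of 0.0511, or without Yorkshire 6, where it was 0.0555 to 0.0580.

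Over all 12 libraries the other members had lower values that missed the threshold. For ACACA, SCD and ACLY r was 0.62, 0.58 and 0.57 (rho 0.64, 0.66 and 0.62), with permutation adjusted p-values of 0.108, 0.121 and 0.108 for r and of 0.0711 each for rho. THRSP had r = 0.47 and rho = 0.42, and ME1 had r = 0.38 and rho = 0.40, with permutation adjusted p-values for r of 0.186 and 0.310. SREBF1 had r = -0.22 and rho = -0.24, and SLC25A1 had r = -0.19 and rho = -0.24, with permutation adjusted p-values for r of 0.573 and 0.587. For SREBF1 this was -0.51 within Laiwu and 0.16 within Yorkshire, and 0.29 without Laiwu 2 and Laiwu 3. With the same 2 libraries left out, r was 0.67 for ACACA, 0.73 for SCD, 0.62 for ACLY, 0.69 for THRSP and 0.33 for ME1. SCD and THRSP then lay above ELOVL6 and MLXIPL (0.68 each), so the order of the members depended on Laiwu 2 and Laiwu 3. The difference in r between members was not tested.

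**Figure D5:**
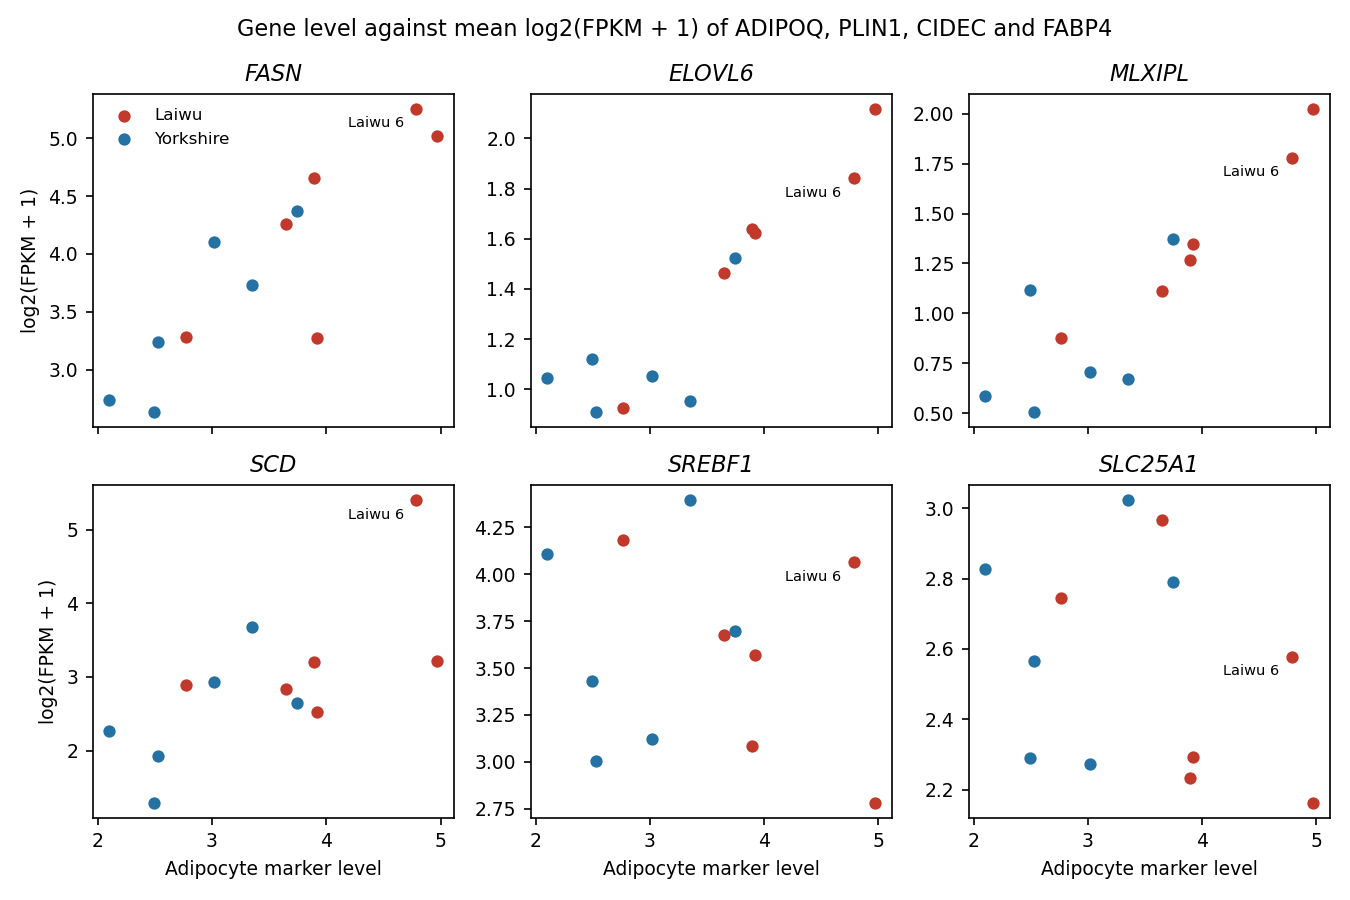
log2(FPKM + 1) of 6 genes against the mean log2(FPKM + 1) of 4 fat cell markers, 1 point a library, Laiwu red and Yorkshire blue. FASN, ELOVL6 and MLXIPL climb with the markers, SCD has 1 point (Laiwu 6) far above the rest, and SREBF1 and SLC25A1 show no such slope.

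Among 9952 other tested genes with a symbol, those most like FASN over the 12 libraries, by r of log2(FPKM + 1) centred within breed, were LPL (0.94), which encodes lipoprotein lipase, CIDEC (0.92), VPS18 (0.91), GYG2 (0.90), which encodes a glycogenin, and ZFYVE27 (0.90). LPL and CIDEC stayed among the closest 5 without Laiwu 6. Those most like SCD were SIPA1L1 (0.91), UST (0.90), CMIP (0.89), CLIP4 (0.89) and SMPD4 (0.88), and 0 of these 5 stayed among the closest 5 without Laiwu 6. With so many candidates and 12 libraries, such values are a description and carry no test. Chosen after their values were seen, the gene most like both MLXIPL (0.95) and ELOVL6 (0.94) was PC, which encodes pyruvate carboxylase, and those most like SREBF1 were GRID2IP (0.95), MTMR7 (0.95) and ACSM5 (0.95). Without Laiwu 6 PC came at place 2 for MLXIPL, after MNT, and at place 3 for ELOVL6, after ADIG and MNT. GRID2IP and MTMR7 then stayed among the 5 genes closest to SREBF1, and ACSM5 did not.

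The wider pathway, in lists written from general knowledge of lipogenesis, had no gene past the threshold in either direction. Of the 8 genes of substrate and NADPH supply, 5 lay above 0 and 3 below, with a median log2 fold change of 0.07. PC, which makes oxaloacetate for citrate, averaged 28.8 ± 9.06 FPKM in Laiwu against 19.1 ± 3.93 in Yorkshire (SD, n = 6 each). Its log2 fold change was 0.55 ± 0.20 (SE, unadjusted p = 0.0156, adjusted p = 0.912), and 0.48 without Laiwu 6. TALDO1, the transaldolase of the pentose phosphate pathway, had a log2 fold change of -0.13 ± 0.10. IDH1 and TKT, named after their values were seen, also had an unadjusted p under 0.05, with log2 fold changes of 0.46 ± 0.17 and 0.41 ± 0.13. Of the other carboxylase, elongation and desaturation genes, 4 of 7 tested lay above 0, with a median of 0.03. ACACB had a log2 fold change of 0.15 ± 0.23 (0.01 without Yorkshire 5), and HSD17B12, a reductase of the elongation cycle, 0.03 ± 0.10. ELOVL5, named after its value was seen, had 0.59 ± 0.26, or 0.29 without Laiwu 6.

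Of the genes of SREBP processing and of lipogenic transcription factors, 2 of 12 tested lay above 0 and 10 below, with a median of -0.10, and -0.12 without Laiwu 6. USF2, an E-box factor, had a log2 fold change of -0.12 ± 0.11, and RXRA, the partner of the liver X receptors, -0.05 ± 0.11. SREBF2, named as a term of a ratio, had -0.25 ± 0.13 (adjusted p = 0.912). The targets of glucose-sensing factors, 3 of 4 tested, had 2 above 0 and a median of 0.12, and -0.004 without Yorkshire 5. TXNIP, a textbook target of MondoA and ChREBP, averaged 265.2 ± 77.7 FPKM in Laiwu against 213.0 ± 80.3 in Yorkshire. GPD1, the glycerol phosphate dehydrogenase, averaged 211.7 ± 32.2 FPKM in Laiwu against 234.9 ± 44.2 in Yorkshire. Of the modulators of acetyl-CoA carboxylase, 4 of 5 lay above 0 with a median of 0.04. The AMP-activated kinase subunit genes PRKAB2 and PRKAA2 had log2 fold changes of 0.11 ± 0.10 and 0.13 ± 0.13.

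Among cell type markers, the fat cell list had 10 of 11 tested genes above 0, a median log2 fold change of 0.98, 0.82 without Laiwu 6, and 0 past the threshold. In that list 8 of 11 had an unadjusted edgeR p under 0.05, against 4.44% of all tested genes, and 6 had it without Laiwu 6, against 3.84%. The list was chosen with earlier results of these data known and its genes share libraries, so these counts are a description and no test. Its genes of highest level, PLIN4 (a lipid droplet coat protein) and CFD (the adipokine adipsin), had log2 fold changes of 0.30 ± 0.20 and -0.10 ± 0.12. ADIPOQ, PLIN1, CIDEC and FABP4 had 1.64 ± 0.54, 1.61 ± 0.50, 1.23 ± 0.43 and 0.66 ± 0.27, and 1.46, 1.45, 1.04 and 0.54 without Laiwu 6. Of the fibro-adipogenic progenitor markers 5 of 5 lay above 0, with a median of 0.34, and the matrix genes DCN and COL1A1 had 0.34 ± 0.16 and 0.52 ± 0.33. Endothelial markers had 4 of 5 above 0 and a median of 0.05, but 2 of 5 above 0 without Laiwu 6 or without Yorkshire 5, and PECAM1 and CDH5 had 0.01 ± 0.22 and 0.07 ± 0.18. Macrophage markers had 1 of 4 above 0 and a median of -0.18, with C1QA at 0.34 ± 0.41 and CSF1R at -0.06 ± 0.21. Muscle markers had 2 of 7 above 0 and a median of -0.10, with ACTA1 at -0.10 ± 0.16 and CKM at -0.09 ± 0.13.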

How the data were processed

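RNA was prepared with a kit that marks strand with dUTP, per the labels' protocols. The series' design text says that reads were filtered with FastQC and aligned to Sscrofa11.1 with HISAT2 2.2.1, and the submitters' processing notes also list cutadapt 1.9, StringTie 1.3.4d, DESeq2 and edgeR with no role stated. The annotation release is not given in the sources used, nor are the counting settings. Per the file headers, the authors deposited a raw count and an FPKM value for each gene and library. For the 10 genes, count over FPKM and library total was constant within a CV of 0.514%. Gene names come from the deposited table, and a table of pig gene symbols supplied 130 of the 8541 missing names. A count of 0 would allow up to 3 counts, or 0.0446 to 0.0546 CPM, and counting limits cover counting error only.

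The counts were tested with edgeR 4.0.16 (TMM, robust quasi-likelihood fit, Laiwu minus Yorkshire, no covariate) over the 11205 genes averaging 0.5 FPKM or more, leaving out 12066. The SE follows from the F statistic and the fold change. The script was tested on simulated data. limma 3.58.1, DESeq2 1.42.0 and R 4.3.3 served for alternatives, and Python 3.11.15, scipy 1.17.1 and matplotlib 3.10.9 for the rest. Ratios used a pseudocount of 0.01 FPKM, and correlations log2(FPKM + 1) and 100000 permutations of libraries within breed. Genes were named by a rule: all members, both terms of each ratio, the 4 fat cell markers, the 5 genes most like FASN and SCD, and the 2 members of highest level in each list where none passed the threshold. The members and lists were chosen with earlier results of these data known. The tests among the 45 pairs of members were added after the values were seen, as were the spread and the order of levels without Laiwu 6. Symbols not found in the table were TECR, MBTPS2, MB, RETN and AQP7, and SCD5, PKLR and LEP lay below 0.5 FPKM. The last 3 were not tested, though LEP is part of the summed fat cell marker level, and the first 5 were not analysed here.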

Additional observations from a re-analysis of the deposited data

Results flagged for a closer look

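In groups of 6 libraries, a library was marked where the gap to its neighbour as a share of the group's range exceeded the 95% critical value of Dixon's test. Of 38 groups (10 members, 4 fat cell markers and 5 ratios in each breed) 5 were marked. Chance alone marks about 1 in 20, or 1.9, if values are normal and groups independent. These groups share libraries and genes, and SCD in Laiwu 6 was known to be extreme beforehand. The 5 are therefore a description and no test against 1.9. SCD stood at 41.3 FPKM in Laiwu 6, where the next Laiwu library was at 8.28 FPKM, a gap of 0.904 of the range. THRSP stood at 3.55 FPKM in the same library, with the next at 1.65 FPKM (0.750 of the range), and at 2.63 FPKM in Yorkshire 1, with the next at 1.12 FPKM (0.639 of the range). ELOVL6 stood at 1.88 FPKM in Yorkshire 6, the Yorkshire library with the highest fat cell marker level, and the next Yorkshire library was at 1.18 FPKM. The log2 ratio of ELOVL6 over FASN was -2.05 in Laiwu 4, and the next Laiwu value was -3.23.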

How the results depend on the processing

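No member passed an adjusted p under 0.05 in any of the 21 alternatives, and the number of all genes called was 0 in 20 of them and 1 (CILP) with DESeq2. Genes at an unadjusted p under 0.05 numbered 498, against 1715 of 23271 with no filter on low values, 198 of 4652 at a mean of at least 5 FPKM (which keeps 5 members), 284 without Laiwu 3 and 293 without Yorkshire 5. The median over the members was 0.60 with a lowest of 0.33 (Laiwu 6 left out) and a highest of 0.70 (Yorkshire 1 left out), and was 0.33 at 5 FPKM and 0.38 by limma on log2(FPKM + 1). Every member except ACLY and SREBF1 kept its sign in all alternatives run. ACLY was at 0.012 and 0.020 by limma with pseudocounts of 1 and 0.1, at 0.000542 with the replicate block, and at -0.0901 to 0.0779 with 1 library left out. SREBF1 ran from -0.25 to 0.10 with 1 library left out. With 1 library left out the log2 differences of SCD over FASN, ELOVL6 over FASN, SREBF1 over SREBF2 and ACACA over ACACB ran from -0.0607 to 0.41, from -0.32 to 0.11, from -0.00352 to 0.34 and from 0.16 to 0.39, and 0 of 5 ratios passed in each run. The count of members related to the fat cell marker level was 3, and ran from 0 (without Laiwu 2, and without Yorkshire 6) to 4 (without Laiwu 3). The r of SREBF1 ran from -0.39 to 0.0256. Of 6 pairs of members called, 1 was called without Laiwu 6. The cause of these changes was not tested.

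Laiwu and Yorkshire libraries share the numbers 1 to 6, but same-numbered libraries deviated together (correlation over 0.1) in only 3 of 6 pairs, from -0.24 to 0.38, so the numbers were not taken to pair them. With the number as a block, 0 genes and 0 members were called, 433 genes and 4 members had an unadjusted p under 0.05, and the median over the members was 0.64. Depth did not limit the member values, the lowest of which was 83 counts.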
